A study of Mus musculus with 48 samples.

Results

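The clustered protocadherins are cell-surface cadherins encoded by 3 neighbouring gene arrays, alpha, beta and gamma. All genes whose symbols follow the Pcdha, Pcdhb and Pcdhg naming scheme were taken, which gave 58 of the 36935 genes in the count table: 14 alpha, 22 beta and 22 gamma members. The table places every one of them on the plus strand of mouse chromosome 18 (GRCm39), with the alpha array from 37063237 to 37320714, the beta array from 37397991 to 37657532 and the gamma array from 37794846 to 37974926. RNA was sequenced after ribosomal RNA depletion from 48 libraries of the E14 mouse embryonic stem cell line and 3 derived genotypes: wild-type E14, KAT6A-/-, KAT6B-/- and the double knockout KAT6A-/-; KAT6B-/-. KAT6A and KAT6B are related histone acetyltransferases. Each genotype was sampled on day 0 as untreated stem cells grown with LIF, on day 2 as embryoid bodies without LIF, on day 6 as embryoid bodies exposed to all-trans retinoic acid, and on day 15 as progenitors that had been dissociated, plated on laminin and kept in N2 and B27 medium. Each of the 16 groups had 3 libraries, from 3 independent differentiation experiments. Whether a knockout line is 1 clone is not given in the sources used here.

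In neurons, each clustered protocadherin promoter lies in front of its own large first exon, and a cell uses only some of these promoters. In the alpha and gamma arrays every first exon is spliced to the same set of constant exons at the end of the array, so members differ outside the cell and share their cytoplasmic tail, whereas beta members are single-exon genes without that tail. CTCF and cohesin loop a distant enhancer to the chosen promoter, and DNA methylation keeps unchosen promoters silent. The proteins bind like with like and take part in self-recognition of neurites. The C-type members, Pcdhac1, Pcdhac2, Pcdhgc3, Pcdhgc4 and Pcdhgc5, sit next to the constant exons and are used more uniformly across cells than the alternate members.

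Library totals ran from 22499375 to 72229461 counts. Levels are given as CPM, counts relative to the library total, scaled over all 48 libraries by the trimmed mean of M-values (TMM). Kat6a stood at 119 to 157 CPM in E14 at day 0, at 80.2 to 87.5 in KAT6A-/- and at 87.6 to 117 in the double knockout. Kat6b stood at 252 to 376 CPM in E14 at day 0, at 190 to 218 in KAT6B-/- and at 181 to 254 in the double knockout, and at day 15 the KAT6B-/- libraries (73.3 to 126) overlapped E14 (90.3 to 105). Reads of both genes thus remained in the libraries labelled knockout, and a count per gene does not show which part of a gene was altered.

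The deposited counts could not be read member by member in the alpha and gamma arrays, because reads on the constant exons seem to have been counted for each member. How reads were counted is not given, so this is inferred from the near-equal counts below. In the gene models of an earlier build (GENCODE M21, used for exon lengths only), all 14 alpha members share 2860 exonic bases, a median of 53.4% of a member's exonic length, and all 22 gamma members share 2116 bases, a median of 44.7%. Beta members share at most 9.67% (Pcdhb21 and Pcdhb22, which overlap by 455 bases). In every day 15 library the least counted gamma member held 95.5% to 97.1% of the median gamma member's count, and the least counted alpha member held 90.3% to 94.7% of the alpha median. Over days 0, 2 and 6 these shares were 91.4% to 97.9% for gamma and 45.9% to 93.8% for alpha, lowest at day 6. In 6 of 12 day 0 libraries the gamma members other than the C types varied less among themselves than independent Poisson counts would, with a variance below the mean, and the same held in 11 of 12 for alpha. At day 15 it held in 0 of 12 for either array. The level of the lowest member is therefore used below as the level of the shared exons, of which it is an upper limit. The count of a member above that lowest member is called its own reads. Own reads are a lower bound for members that share only the constant exons, and they are 0 by construction for whichever member is lowest. Pcdhgb1 and Pcdhga4 share 3154 and 3157 bases with other members, and Pcdhgb4 and Pcdhga8 share 2224 and 2227, so reads on their further shared bases stay in their own reads. The lowest alpha member at day 15 was Pcdhac1 in 11 of 12 libraries, and the lowest gamma member was Pcdhga1 in 9 and Pcdhga6 in 3. The 14 alpha and 22 gamma counts are in large part 1 measurement each, so the number of members called in these arrays does not count independent changes.

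**Figure D1:**
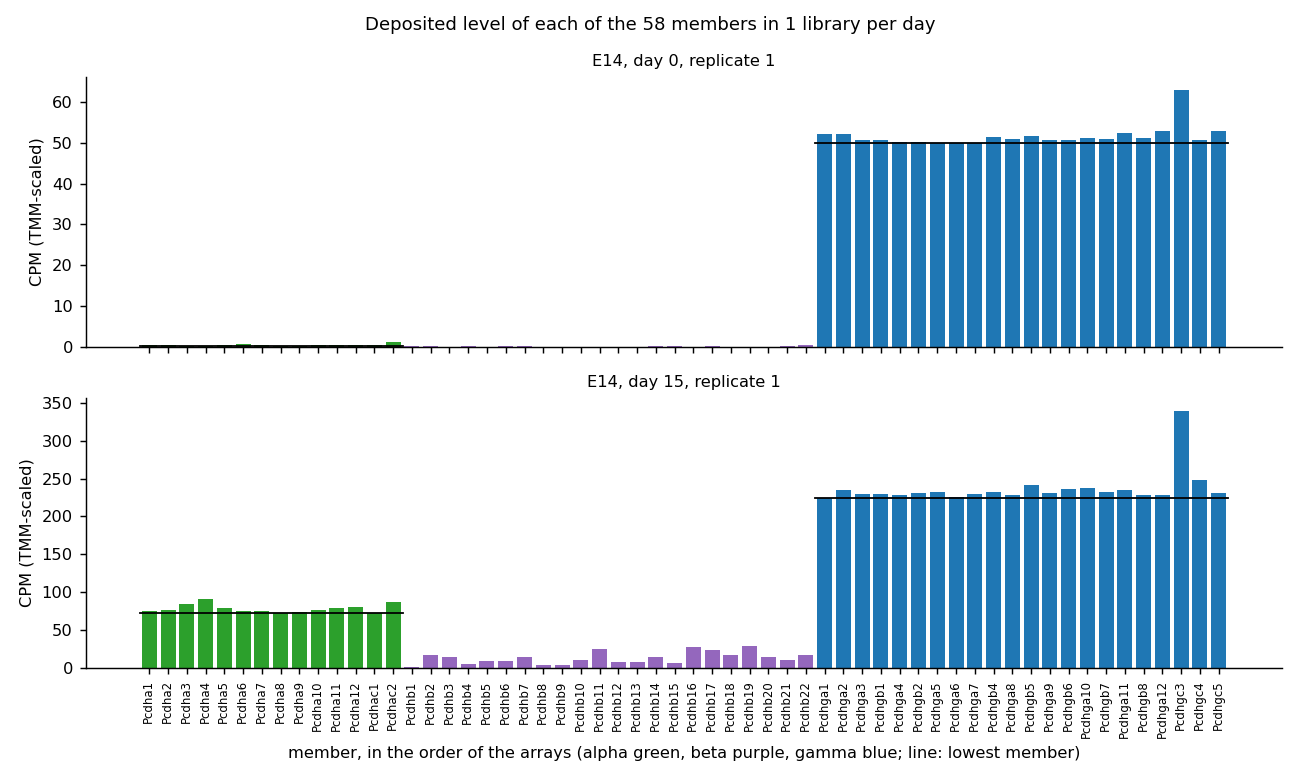
Level (TMM-scaled CPM) of each of the 58 members in E14 replicate 1 at day 0 (top) and day 15 (bottom), in the order of the arrays; black lines mark the lowest alpha and gamma member. Alpha and gamma bars form plateaus just above those lines, with Pcdhgc3 standing clear of the gamma plateau, while beta bars differ from one another.

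The alpha, beta and gamma arrays each followed their own course in wild-type E14 cells. Gamma was already transcribed in stem cells, fell at day 2 and was 4.37-fold above day 0 at day 15. Beta was close to silent until day 2, began to rise by day 6 and reached 105-fold its day 0 level at day 15. Alpha stayed low to day 6, and at day 15 its shared exons were 107-fold above day 0, or 219-fold without E14 day 0 replicate 2. The sum of alpha counts was 90.01-fold above day 0 and the sum of alpha own reads 31.0-fold. By edgeR's quasi-likelihood test with Benjamini-Hochberg adjustment, all 58 members were higher at day 15 than at day 0 in E14, against 36.5% of all genes tested. In bulk RNA, fewer cells of a type and less RNA per cell cannot be told apart.

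Gamma shared exons measured 49.9, 44.6 and 40.4 CPM in the 3 E14 libraries at day 0. They measured 19.9, 19.9 and 22.9 CPM at day 2, below every day 0 library. At day 6 they measured 51.9, 32.9 and 73.6 CPM, a range that overlaps day 0, and at day 15 they measured 224, 171 and 195 CPM, above every earlier library. As deposited, all 22 gamma members were called lower at day 2 (log2 changes of -1.16 to -0.99, smallest adjusted p = 0.0027 by edgeR), where 12.1% of all genes were called lower. All 22 were called higher at day 15 (2.06 to 2.33, smallest adjusted p = 6.5e-07). The same 22 called lower at day 2 recurred in KAT6A-/- (background 12.8%) and in the double knockout (7.14%). The double knockout's count rested on single libraries: 1 member was called without day 0 replicate 1, and 4 without day 2 replicate 2. In KAT6B-/- no member was called at day 2 (background 2.24%) although all 22 gamma members lay at an unadjusted p below 0.05, as 22% of all genes did, and DESeq2 called 21 gamma members and 1 beta member lower.

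Beta members started from very few reads. At day 0 the 22 beta members together held 32 to 134 counts in a library and 10 to 18 of them had any count. In E14 their summed level was 1.56, 2.25 and 2.49 CPM at day 0, and 0.965, 0.963 and 2.12 CPM at day 2. It was 11.9, 4.36 and 21.9 CPM at day 6 and 282, 172 and 207 CPM at day 15, so every day 6 library lay above every day 0 and day 2 library, and every day 15 library above day 6. Of the 15 members called higher at day 6 in E14 (background 25.8%), 14 were beta genes and the other was Pcdhgc3. That count depended on the libraries: it was 6, all beta, without E14 day 6 replicate 3. Without day 6 replicate 2, the library with the lowest beta and gamma levels of that day, it was 39. These were 17 beta and all 22 gamma members, where 5225 of 21065 genes were called higher.

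Alpha shared exons measured 0.195, 1.04 and 0.304 CPM in E14 at day 0, so replicate 2 was several times higher than the others. They measured 0.907, 1.21 and 1.54 CPM at day 2 and 0.394, 0.675 and 0.980 CPM at day 6. Both ranges overlapped day 0 through replicate 2 alone. At day 15 they measured 72.1, 39.8 and 52.4 CPM, above all earlier libraries. As deposited, 1 alpha member, Pcdha12, was called higher at day 2 (log2 change 1.44 ± 0.42 SE, adjusted p = 0.027 by edgeR). DESeq2 called 9 alpha members higher at day 2 and the fit of all 48 libraries called 0, while 11 of 14 had an unadjusted p below 0.05 by edgeR. In the deposited counts no alpha member was called at day 6 by edgeR or DESeq2 (0 of 14 at an unadjusted p below 0.05), and all 14 were called at day 15, with log2 changes of 6.00 to 6.77. Without E14 day 0 replicate 2, edgeR called 11 alpha members higher at day 2 and 10 at day 6. It then called 2413 and 5021 of 21185 genes higher. At day 6 the alpha shared exons stood at 1.25% of their day 15 mean, the beta sum at 5.77% and the gamma shared exons at 26.9%. On own reads these shares were 5.39% for alpha and 45.2% for gamma, so alpha and beta were then about level.

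**Figure D2:**
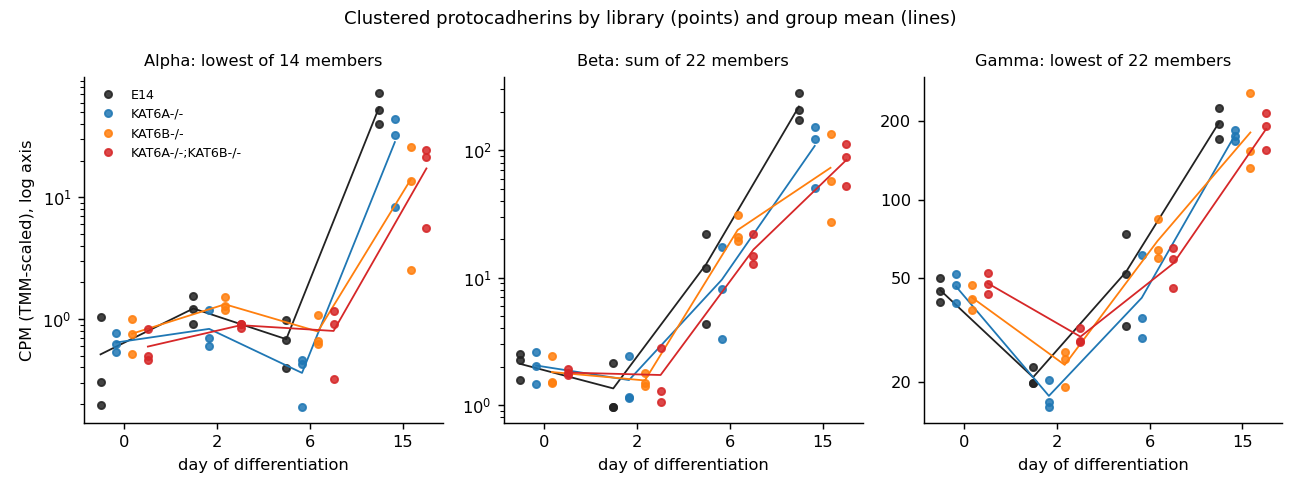
Level (TMM-scaled CPM, log axis) of the alpha shared exons, the beta sum and the gamma shared exons against day, with 1 point per library and lines joining the means of 3 libraries for each genotype. Gamma dips at day 2, beta climbs from day 6 and alpha climbs between days 6 and 15; at day 15 the alpha and beta points of the knockouts reach lower than those of E14, while the gamma points overlap.

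The knockout lines also had beta calls by day 6 and calls in every array by day 15. KAT6A-/- had 9 members called higher at day 6 (background 25.7%), all of them beta. Without day 6 replicate 3, 4 beta members were called higher and 21 gamma members lower, where 4890 of 21311 genes were called lower. With all libraries in, all 57 members tested were called higher at day 15 (35.8%). KAT6B-/- had 36 members called higher at day 6 (23.5%), 14 beta and 22 gamma. The count fell to 16 and 20 without day 0 replicates 1 and 3, and to 15 without day 6 replicate 1. All 55 members tested were called at day 15 (33.6%). The double knockout had 17 at day 6 (22.8%), 16 beta and 1 gamma, or 30 without day 6 replicate 2, and all 57 tested at day 15 (33.6%). Members left out of a fit were beta genes with too few counts in all of that genotype's libraries.

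Single beta genes can be read directly. Pcdhb22, the beta member with the highest mean level over all libraries, measured 0.487, 0.144 and 0.578 CPM in E14 at day 0 and 0.0292, 0.0826 and 0.288 at day 2. It measured 2.69, 0.723 and 4.64 CPM at day 6 and 17.1, 13.0 and 14.6 at day 15, with no overlap between days 0, 6 and 15. Its log2 change was 2.78 ± 0.66 (SE) at day 6 and 5.26 ± 0.69 at day 15 (edgeR adjusted p = 0.0033 and 1.2e-05). Pcdhb22 is the last gene of the beta array and already held 20.3% ± 12.7 (SD, n = 3) of the few beta counts at day 0, against 6.88% ± 0.75 at day 15.

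Pcdhb16 measured 0, 0.288 and 0.152 CPM in E14 at day 0 and 0, 0 and 0.0412 at day 2. It measured 0.427, 0.458 and 1.81 CPM at day 6 and 27.1, 17.1 and 21.7 at day 15, with no overlap between day 6 and any other day. The log2 change was 2.50 ± 0.71 (SE) at day 6, where the call was lost without day 6 replicate 3 (edgeR adjusted p = 0.075), and 7.07 ± 0.70 at day 15 (adjusted p = 7.6e-07). Pcdhb19 measured 0, 0.0289 and 0.0912 CPM at day 0 and 28.3, 16.0 and 20.3 CPM at day 15, a log2 change of 8.84 ± 0.88 (adjusted p = 8.3e-07 by edgeR).

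Per kb of exon, the median of the beta members in E14 at day 15 was 2.12 CPM per kb, from 4.56 for Pcdhb11, 4.42 for Pcdhb2 and 4.21 for Pcdhb16 down to 0.753 for Pcdhb8 and 0.156 for Pcdhb1. Pcdhb1, the first beta gene and the beta member known to lack the CTCF-binding promoter element of its neighbours, measured 0.457, 0.337 and 0.416 CPM at day 15. At day 0 it measured 0.195, 0 and 0 CPM, and at day 6 it had no count in any E14 library. It was called at day 15 (log2 change 2.96 ± 1.15 SE, edgeR adjusted p = 0.036), the smallest beta change of the 22. Differences of per-kb level between neighbours in this order are small against the spread: Pcdhb11 and Pcdhb2 overlapped.

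Own reads show which alpha and gamma first exons were transcribed. Among alpha members at day 15, Pcdha4 held 18.3, 10.5 and 16.1 CPM of own reads in E14, Pcdha3 held 11.6, 7.66 and 8.58, and Pcdhac2, the C-type gene nearest the constant exons, held 14.5, 6.55 and 8.72. At day 0 the same 3 genes held at most 0.231, 0.173 and 0.926 CPM. Pcdha4 thus accounted for 23.8% ± 2.6 (SD, n = 3) of alpha own reads at day 15 and Pcdhac2 for 15.3% ± 1.7. At day 0, where alpha own reads summed to 1.79 to 2.39 CPM, Pcdhac2 held 24.3% ± 14.2 (SD, n = 3) of them. Pcdhac1, the other alpha C-type gene, had 0.0974, 0.202 and 0.182 CPM of own reads at day 0 and 0.380, 0.440 and 0.391 at day 2. At day 15 it was the lowest alpha member in all 3 E14 libraries, so its own reads are 0 by construction and cannot be read as a fall.

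Pcdhgc3 was the leading gamma member throughout. Its own reads were 13.1, 17.1 and 19.0 CPM in E14 at day 0 and 7.25, 7.62 and 11.5 at day 2. They were 37.9, 21.7 and 54.1 CPM at day 6 and 115, 93.7 and 110 at day 15. All day 2 libraries lay below day 0, and all day 6 libraries above it. In the fit of own reads, an alternative added after the data were seen, Pcdhgc3 changed by -0.92 ± 0.27, 1.22 ± 0.27 and 2.72 ± 0.28 (log2, SE) at days 2, 6 and 15 (edgeR adjusted p = 0.030, 0.0020 and 1.2e-06). It held 31.7% ± 2.2 (SD, n = 3) of gamma own reads at day 0 and 41.7% ± 3.0 at day 15. Per kb of own exon it reached 31.4 CPM at day 15, against 5.34 for Pcdhga10, 5.12 for Pcdhgc4 and a gamma median of 2.22.

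The other gamma C-type genes, Pcdhgc4 and Pcdhgc5, were also called higher in E14 at day 15. Pcdhgc4, a member needed for the survival of some neurons, held 0.731, 1.36 and 1.73 CPM of own reads at day 0, 1.26, 1.10 and 1.46 at day 2, 2.82, 0.145 and 2.81 at day 6, and 24.3, 15.8 and 13.4 at day 15. Its groups overlapped up to day 6, and its log2 change at day 15 was 3.81 ± 0.68 (SE, edgeR adjusted p = 2.2e-04). Pcdhgc5 held 3.02, 2.48 and 2.71 CPM at day 0, 1.90, 1.98 and 2.26 at day 2, 3.74, 1.28 and 2.22 at day 6, and 6.59, 6.78 and 5.81 at day 15, a log2 change of 1.26 ± 0.33 (adjusted p = 0.0038). Of the alternate gamma members, Pcdhga10 rose from 1.36, 1.79 and 1.95 CPM at day 0 to 13.2, 13.99 and 14.7 at day 15. Pcdhgb5 rose from 1.71, 2.65 and 2.04 CPM to 17.3, 13.2 and 13.1, and neither overlapped between the 2 days.

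With own reads in place of the deposited counts, 54 members were called higher at day 15 in E14 (background 36.4%): 13 alpha, 22 beta and 19 gamma. The single member called lower was Pcdhac1, for the reason given above. At day 6, 30 members were called higher, 4 alpha, 14 beta and 12 gamma, where 5300 of 20505 genes were called higher. The count was 17 without E14 day 6 replicate 3, where 4806 of 21095 genes were called higher. At day 2, where the 22 deposited gamma counts fell together, own reads gave 2 gamma members called lower, Pcdhgb4 (log2 change -1.002 ± 0.332 SE, edgeR adjusted p = 0.045) and Pcdhgc3, and 1 alpha member called higher, Pcdha12. Of all 20505 genes tested at day 2, 2462 were called lower and 1934 higher. The 2 lower gamma calls became 0 without day 0 replicate 2 or 3 or day 2 replicate 1 or 2. They became 3 without day 0 replicate 1 and 5 without day 2 replicate 3. The median own-read change at day 2 over the gamma members was -0.77, beside -0.44 over all 58.

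**Figure D3:**
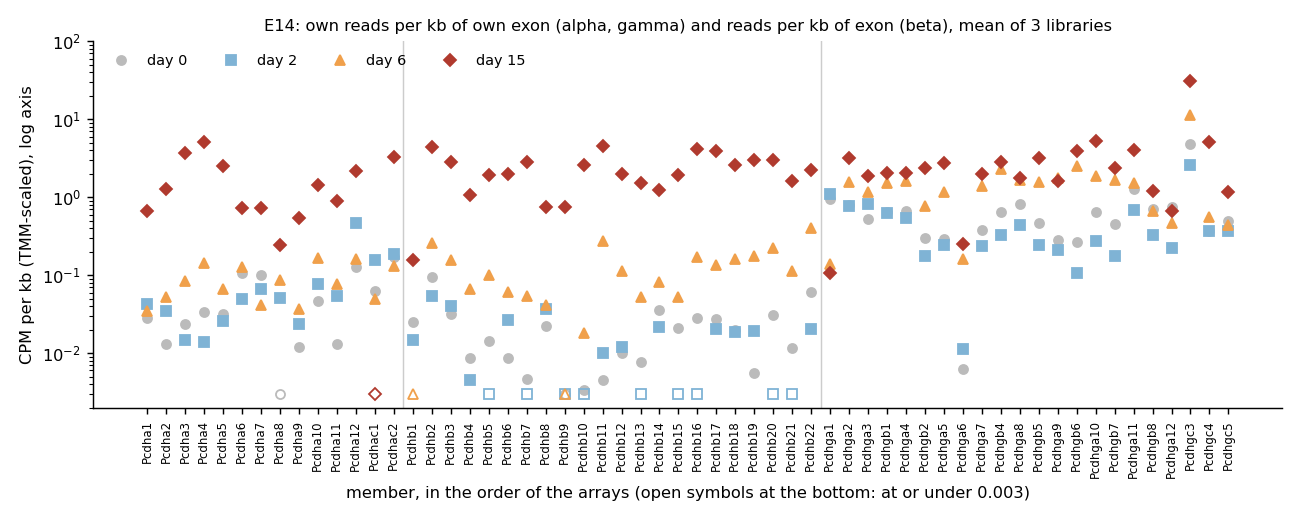
Mean level in E14 (CPM per kb, log axis, 3 libraries) of each member in array order at days 0, 2, 6 and 15, from own reads for alpha and gamma members and all reads for beta members; open symbols lie at or under 0.003. Day 15 stands above the other days for all beta members, the gamma median at day 0 (0.592) is above those of alpha (0.0326) and beta (0.0171), and Pcdhgc3 is highest at every day.

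The knockouts were compared with E14 day by day, which addresses whether loss of either acetyltransferase changes these genes. By edgeR no member was called in any of the 12 comparisons. In KAT6A-/-, KAT6B-/- and the double knockout, in that order throughout, the shares of all genes called were 0%, 0.0106% and 2.09% at day 0, 0.0102%, 0% and 1.12% at day 2, 0%, 0.0292% and 0.0682% at day 6, and 0%, 0.0742% and 3.18% at day 15. At day 0, 39 members could be tested, and none had an unadjusted p below 0.05, where 4.75%, 11.8% and 18.2% of all genes did. Without E14 day 0 replicate 2, 8, 10 and 6 members did, as did 2966, 4738 and 5244 of 19429 genes. No member was called there either. With all libraries in, DESeq2 also called none at day 0. At day 2, with 39 tested, 3, 0 and 23 members had an unadjusted p below 0.05, against 10.3%, 4.06% and 12.7% of all genes, and 22 of the 23 were gamma members. DESeq2 called 1 member higher in the double knockout and none in the others. At day 6, with 55 tested, these counts were 10, 1 and 1, against 5.3%, 13% and 8.12% of all genes, and DESeq2 called 1 higher in KAT6B-/-. At day 15, with all 58 tested, they were 2, 28 and 10, against 11.4%, 20% and 24.6% of all genes. DESeq2 called 8 lower in KAT6B-/-, where it called 4.59% of all genes lower, and 5 lower in the double knockout, where it called 6.46%.

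At day 2 the gamma shared exons measured 32.2, 28.9 and 28.5 CPM in the double knockout, above all 3 E14 libraries (19.9, 19.9 and 22.9). The group mean of the shared exons was 143% of E14. As deposited, all 22 gamma members, in large part 1 measurement, lay above every E14 library there, where 11.8% of genes tested did so. No gamma call passed adjustment by edgeR (smallest adjusted p over all 39 members tested, 0.12). Gamma own reads measured 45.5, 30.8 and 34.0 CPM in the double knockout and 25.6, 31.9 and 42.8 in E14. These overlapped, with a group mean of 110% of E14. Of 21 gamma members tested on own reads, 1 had an unadjusted edgeR p below 0.05, as did 2461 of all 19587 genes. On gamma shared exons KAT6A-/- measured 20.3, 16.0 and 16.8 CPM and KAT6B-/- measured 24.5, 26.1 and 19.2 CPM, both overlapping E14. In the double knockout at day 2, 7 of 14 alpha members lay below every E14 library, where 10.8% of genes tested did. The sum of alpha counts was 74.6% of E14 and alpha own reads 83.5%, both below all E14 libraries. Alpha shared exons (72.9%) overlapped E14. Alpha own reads also lay below all E14 libraries in the double knockout at day 0 (73.9%). In KAT6A-/- they did so at day 0 (66.5%) and day 2 (63.5%). The sum of alpha counts overlapped E14 in each of these cases.

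At day 15 the mean alpha and beta levels of all 3 knockouts lay below E14. As deposited, no member passed the adjusted threshold in edgeR's fit of that day. In KAT6A-/-, KAT6B-/- and the double knockout the gamma means were 89.3%, 91.9% and 94.9% of E14 on shared exons. On own reads they were 103%, 114% and 120%. The alpha shared exons measured 8.27, 32.7 and 44.2 CPM in KAT6A-/-, 25.8, 2.54 and 13.5 in KAT6B-/-, and 24.6, 21.6 and 5.56 in the double knockout. The KAT6B-/- and double knockout libraries all lay below the lowest E14 library (39.8), and those of KAT6A-/- overlapped E14. Group means were 51.9%, 25.5% and 31.5% of E14. On alpha own reads they were 58.4%, 38.9% and 43.9%, and KAT6B-/- then overlapped E14 (highest library 51.8 CPM, lowest E14 library 46.1). The beta sum measured 50.2, 121 and 153 CPM in KAT6A-/-, 134, 27.2 and 57.4 in KAT6B-/-, and 87.8, 111 and 52.3 in the double knockout, all below the lowest E14 library (172). Group means were 49.1%, 33.0% and 38.0% of E14. The gamma shared exons measured 168, 174 and 185 CPM in KAT6A-/-, 256, 132 and 154 in KAT6B-/-, and 191, 214 and 155 in the double knockout, each overlapping E14.

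Counted by member, KAT6A-/- lay below all E14 libraries for 16 of 58 members, all beta (background 13.2%). KAT6B-/- did so for 34, made up of 14 alpha and 20 beta (15.2%), and the double knockout for 36, made up of 14 alpha and 22 beta (20.8%). No gamma member did so in any of the 3. The median log2 differences were -0.94, -1.93 and -1.65 for alpha, -1.05, -1.69 and -1.56 for beta, and -0.17, -0.12 and -0.08 for gamma, in the same order, while the medians over all genes tested were 0.01, 0.05 and 0.01. None of these passed edgeR's adjusted threshold (smallest adjusted p = 0.40, 0.15 and 0.11 over the 58 members). The spread within KAT6B-/- was wide. Without its replicate 1, which had the highest alpha and beta levels of that group, 13 members were called lower. In that fit 1054 of 20856 genes were called lower, beside 8 of 20225 with all libraries in. With all 48 libraries in 1 fit, 17 members were called lower in KAT6B-/- (14 alpha and 3 beta, where 7.35% of all genes were lower) and 14 in the double knockout (all alpha, 9.22%). These 3 comparisons share the E14 libraries.

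Values of single members followed those sums. Pcdhb16 measured 5.42, 11.8 and 16.97 CPM in KAT6A-/-, 13.3, 4.80 and 7.06 in KAT6B-/-, and 8.86, 10.9 and 7.20 in the double knockout, all below the E14 libraries (17.1 to 27.1). Its log2 differences were -0.95 ± 0.45, -1.40 ± 0.46 and -1.31 ± 0.45 (SE; edgeR adjusted p = 0.45, 0.15 and 0.12), and DESeq2 called it in KAT6B-/- and the double knockout (adjusted p = 0.032 and 0.037). Pcdhb19 measured 4.37, 10.8 and 12.0 CPM in KAT6A-/-, 14.5, 2.86 and 4.85 in KAT6B-/-, and 7.09, 8.69 and 5.38 in the double knockout, again below E14 (16.0 to 28.3). Pcdhb22 had the smallest beta difference in each knockout, -0.78 ± 0.31, -0.78 ± 0.31 and -0.61 ± 0.31 (edgeR adjusted p = 0.40, 0.21 and 0.25). Its libraries measured 13.5, 5.72 and 6.91 CPM in KAT6B-/-, where 1 exceeded the lowest E14 library (13.0), and 8.58, 11.4 and 9.49 CPM in the double knockout.

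The change of a knockout effect between day 0 and day 15 was tested as an interaction, and no member was called by edgeR in KAT6A-/- (background 0%), KAT6B-/- (0.0436%) or the double knockout (2.51%). The unadjusted p was below 0.05 for 2, 16 and 8 members, against 9.76%, 14.5% and 20.9% of all genes, and DESeq2 called 0, 0 and 1 lower. Without KAT6B-/- day 15 replicate 1, 2 members were called lower in that line, where 1192 of 21410 genes were called lower.

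Levels of the arrays at day 15 were set beside marker genes of cell types. Summed over 12 pan-neuronal markers such as Tubb3 and Map2, the E14 libraries measured 3887, 2226 and 2810 CPM. The sum was 770, 1832 and 2589 CPM in KAT6A-/-, 1874, 381 and 844 in KAT6B-/-, and 1682, 1583 and 383 in the double knockout. In each genotype the library lowest in alpha, beta and gamma was also the lowest in this sum. Per 1000 CPM of pan-neuronal markers, the beta sum was 72.6 to 77.1 CPM in E14, 59.0 to 66.3 in KAT6A-/-, 68.0 to 71.5 in KAT6B-/- and 52.2 to 136 in the double knockout. The alpha shared exons were 17.9 to 18.6 CPM in E14, 10.7 to 17.9 in KAT6A-/-, 6.66 to 16.1 in KAT6B-/- and 13.6 to 14.6 in the double knockout. On that ratio beta in KAT6B-/- lay just under the E14 range. The gamma shared exons were 57.6 to 76.9 CPM in E14, 71.4 to 218 in KAT6A-/-, 137 to 346 in KAT6B-/- and 113 to 404 in the double knockout.

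Values of the other marker lists are given here, and their part in these differences was not tested. Against E14 at day 15, 1 neural progenitor marker was called lower in KAT6B-/- and 3 in the double knockout. In the double knockout 2 astrocyte and oligodendrocyte markers were also called lower. Of all 20225 genes tested, 8 were called lower in KAT6B-/- and 267 in the double knockout. No mesenchyme or endoderm marker was called. The 10 mesenchyme markers summed to 2349 to 4826 CPM in E14, 3405 to 7403 in KAT6A-/-, 5563 to 18947 in KAT6B-/- and 8365 to 9579 in the double knockout. The highest of these, KAT6B-/- replicate 1, was also the library with the highest gamma level (256 CPM). The 8 astrocyte and oligodendrocyte markers summed to 269 to 508 CPM in E14 and to 20.2 to 132 over the knockout libraries. The 8 neural progenitor markers summed to 1952 to 2217 CPM in E14, 1611 to 2148 in KAT6A-/-, 1061 to 1814 in KAT6B-/- and 850 to 1354 in the double knockout, and the 8 endoderm markers to 783 to 1081, 861 to 1520, 339 to 1910 and 1347 to 1634. Of the pan-neuronal list, 11 of 12 were called higher at day 15 than at day 0 in E14 (background 36.5%). Between any knockout and E14 at day 15, 0 of 12 were called.

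**Figure D4:**
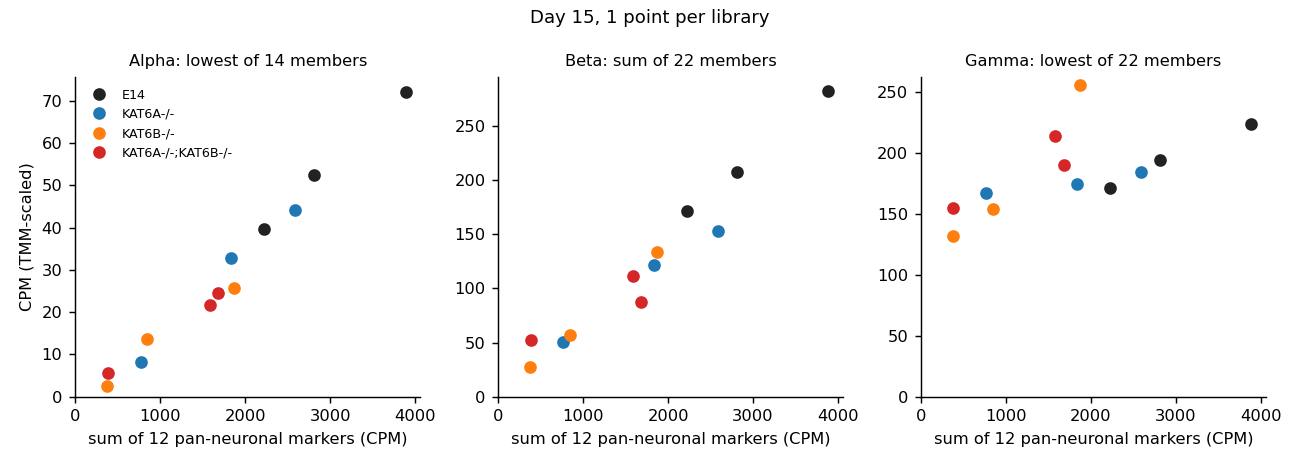
Day 15 level (TMM-scaled CPM) of the alpha shared exons, the beta sum and the gamma shared exons against the sum of 12 pan-neuronal markers (CPM), 1 point per library, coloured by genotype. In each genotype the library lowest in the marker sum is also lowest in alpha, beta and gamma. Gamma stays between 132 and 256 CPM over the whole marker range.

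Among gamma own reads at day 15, Pcdhga10 and Pcdhgc5 had the smallest adjusted p against E14 in the double knockout. Pcdhga10 held 13.2, 13.99 and 14.7 CPM of own reads in E14 and 28.2, 31.4 and 30.7 in the double knockout. It held 25.2, 18.5 and 22.8 CPM in KAT6A-/-, also above all E14 libraries, and 11.4, 17.6 and 20.8 in KAT6B-/-, which overlapped E14. It was the only member called in any knockout comparison of own reads with all libraries in (background 1.85%). Without KAT6B-/- day 15 replicate 1, 17 members were called lower in that line, where 1068 of 20857 genes were called lower. The log2 difference of Pcdhga10 in the double knockout was 1.09 ± 0.20 (SE, edgeR adjusted p = 0.026). The call was lost when any 1 of the 6 libraries was left out (adjusted p = 0.063 to 0.13), with the replicate block (0.057) and with all 48 libraries in 1 fit (0.088), while the log2 difference stayed between 1.06 and 1.14. As deposited, with shared reads included, the difference was 0.02 ± 0.21. At day 0 Pcdhga10 held 1.36 to 1.95 CPM in E14 and 1.63 to 2.18 in the double knockout, which overlapped, and the interaction was 0.93 ± 0.27 (adjusted p = 0.085).

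Pcdhgc5 held 6.59, 6.78 and 5.81 CPM of own reads in E14 at day 15. It held 18.5, 11.9 and 15.0 CPM in KAT6A-/-, 14.8, 11.9 and 13.3 in KAT6B-/- and 23.6, 20.1 and 7.46 in the double knockout, so all 9 knockout libraries lay above all 3 E14 libraries. The log2 differences were 1.23 ± 0.35, 1.05 ± 0.35 and 1.40 ± 0.36 (SE), and none passed the threshold by edgeR (adjusted p = 0.32, 0.15 and 0.060). DESeq2 called it in the double knockout (adjusted p = 0.0065), as did the fit of all 48 libraries (0.025) and edgeR without double knockout replicate 3 (0.042). Pcdhgc3 held 101, 91.5 and 114 CPM in KAT6A-/-, 198, 97.6 and 102 in KAT6B-/- and 107, 132 and 99.3 in the double knockout, each overlapping E14 (93.7 to 115). Pcdhgc4 held 8.35, 10.5 and 13.8 CPM in KAT6A-/-, 20.8, 8.21 and 12.1 in KAT6B-/- and 13.5, 13.0 and 9.81 in the double knockout, and each range overlapped E14 (13.4 to 24.3). Pcdhgb5 held 13.6, 17.2 and 12.7 CPM, 16.2, 11.6 and 14.6, and 12.7, 16.3 and 14.6 in the same order, beside 13.1 to 17.3 in E14.

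**Figure D5:**
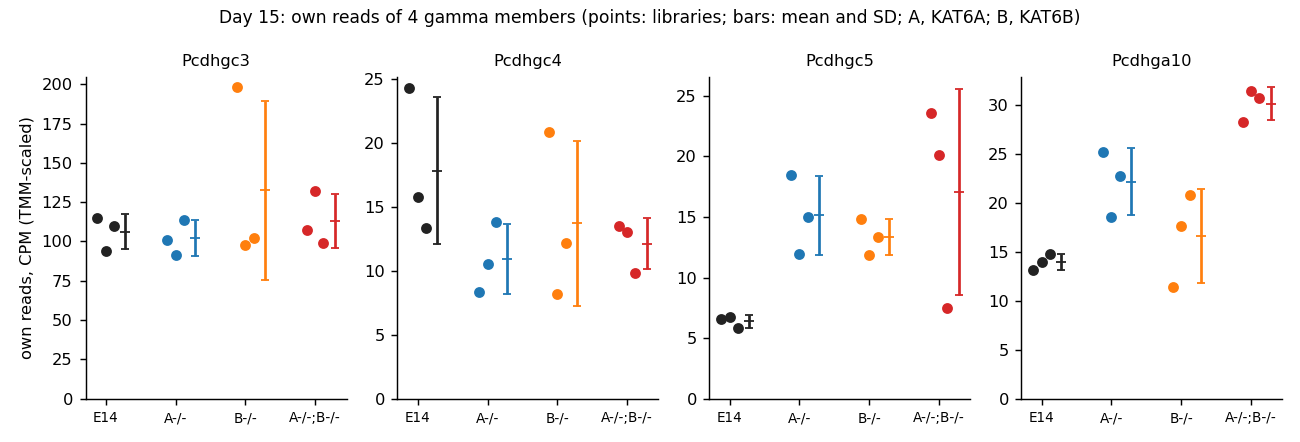
Own reads (TMM-scaled CPM) of Pcdhgc3, Pcdhgc4, Pcdhgc5 and Pcdhga10 at day 15, with 1 point per library and the mean and SD of 3 libraries beside them. All knockout points lie above E14 for Pcdhgc5, and all double knockout points do so for Pcdhga10, while Pcdhgc3 and Pcdhgc4 overlap E14.

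Pcdha4 led the alpha own reads in the knockouts as well. It held 22.8% ± 1.7, 22.04% ± 3.07 and 22.8% ± 1.2 (SD, n = 3) of alpha own reads in KAT6A-/-, KAT6B-/- and the double knockout at day 15, beside 23.8% ± 2.6 in E14. In CPM its own reads were 3.24, 9.63 and 13.2, then 11.6, 0.946 and 4.34, then 8.97, 7.46 and 2.31. Pcdhac2 held 16.5% ± 3.8, 20.4% ± 7.5 and 11.9% ± 3.0, beside 15.3% ± 1.7.

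Among regulators of the arrays, 7 of 11 genes for CTCF, cohesin and its loading or release factors were called lower and 1 higher in E14 between days 0 and 15, where 33.2% of all genes were called lower and the median over all genes was 0.08. Ctcf changed by -1.23 ± 0.12 (log2, SE), the cohesin subunits Smc3 and Rad21 by -1.20 ± 0.11 and -0.95 ± 0.11, and the release factor Wapl by -1.16 ± 0.15, and the largest edgeR adjusted p of these 4 was 1.1e-05, for Wapl. Of 18 genes for DNA methylation and promoter silencing, 11 were called lower and 3 higher. Dnmt3b, the methyltransferase that methylates protocadherin promoters in early development, measured 723, 514 and 467 CPM at day 0 and 1599, 1542 and 1295 at day 2. It measured 53.7, 62.8 and 48.1 CPM at day 6 and 26.2, 72.4 and 40.4 at day 15, so the day 2 libraries were the highest and the day 6 and day 15 libraries were below all others. Its partner Dnmt3l changed by -4.48 ± 0.64 and the demethylases Tet1 and Tet3 by -3.56 ± 0.19 and 2.76 ± 0.24 at day 15. Smchd1, a structural silencer of these arrays, was called higher at day 2 (0.79 ± 0.16, adjusted p = 0.0042 by edgeR) and measured -0.23 ± 0.16 at day 15 (adjusted p = 0.18). No gene of either list was called between a knockout and E14 at day 15.

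Of 16 genes for partners of the protocadherin tail and the actin machinery it meets, 11 were called higher and 2 lower in E14 at day 15, where 36.5% of all genes were called higher and 33.2% lower. The largest changes were in Nlgn1, a synaptic adhesion protein (9.01 ± 0.80, log2, SE), the kinases Prkce (3.38 ± 0.26) and Prkca (3.03 ± 0.19), and the receptor Ret (2.69 ± 0.25). The kinase Ptk2, which the shared tail inhibits, was 0.08 ± 0.11 (edgeR adjusted p = 0.53). Abi2, of the WAVE actin complex, was called lower in the double knockout at day 15 (-0.84 ± 0.19, edgeR adjusted p = 0.046), and no other gene of this list was called between a knockout and E14 on that day. Of 12 protocadherins outside the arrays, 10 were called higher and 1 lower at day 15 in E14, led by Pcdh9 (8.81 ± 0.44), Pcdh10 (8.74 ± 0.45), Pcdh15 (7.41 ± 0.51) and Pcdh8 (5.40 ± 0.61). Of 12 classical cadherins, 10 were called higher and 2 lower. Neither list had a call between a knockout and E14 at day 15.

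Of 16 genes lying inside or beside the arrays, 2 were called higher and 9 lower at day 15 in E14, where 36.5% of all genes were called higher and 33.2% lower. Taf7, a general transcription factor subunit between the beta and gamma arrays, was -0.80 ± 0.16 (log2, SE), and Diaph1, the formin gene beyond the gamma array, was -2.11 ± 0.13. The germ cell gene Dnd1 was -2.58 ± 0.23 and Rell2 was 3.10 ± 0.33, each called by edgeR. The 16 neighbours had a median of -0.72 beside medians of 6.59, 7.04 and 2.16 for the alpha, beta and gamma members as deposited.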

How the data were processed

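RNA was sequenced as paired-end reads from directional libraries, per the labels' protocols, and the deposited raw counts per gene were used as the authors gave them. The submitters' processing notes name HISAT2 and GRCm39. How reads were counted, on which strand and against which gene models is not given in the sources used. Of 36983 rows, 48 with a repeated identifier were dropped. The members and lists were chosen with earlier results of these data known. edgeR 4.0.16 (with limma 3.58.1 in R 4.3.3; TMM, minimum count 10, robust quasi-likelihood) was fitted on all genes, within each genotype over days, within each day over genotypes, and as an interaction, with Benjamini-Hochberg adjustment over all genes tested and calls at an adjusted p under 0.05. The fits were tested on simulated data. DESeq2 1.42.0, other scaling, filters, a replicate block, all 48 libraries in 1 fit and left-out libraries were alternatives. Own reads, chosen after seeing the data, were a member's count less its array's lowest count in that library. Values in every library are given for the 3 highest members of each array, the C types and members called against E14; of each list, up to 4 called genes with the largest changes were named. Pcdha12, Pcdhb1, Pcdhb2, Pcdhb8, Pcdhb11, Pcdhgb4, Ptk2 and Smchd1 were named after their values were seen. The labels do not tie replicate numbers to a shared batch. In 1 comparison, the double knockout against E14 at day 6, all 3 same-numbered pairs deviated together (r = 0.12 to 0.39), and the block called 0 members there, as did the fit without it. Library totals of 22499375 to 72229461 counts put 3 counts between 0.042 and 0.13 CPM before TMM scaling.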

Additional observations from a re-analysis of the deposited data

How the results depend on the processing

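Day 15 calls against day 0 stayed within 1.5 times under all alternatives run. With own reads, day 2 lower calls were 2 in E14, 3 in KAT6A-/-, 1 in KAT6B-/- and 1 in the double knockout, day 6 higher calls were 30 in E14, 19 in KAT6A-/- and 34 in the double knockout, and 1 member was called in the double knockout against E14 at day 15. KAT6B-/- at day 2 had 18 lower calls with no filter, 22 with DESeq2, 8 with the replicate block and 23 with all 48 libraries in 1 fit. Against E14, DESeq2 called 1 member in the double knockout at day 2, 1 in KAT6B-/- at day 6 (also 1 with the replicate block), and 8 in KAT6B-/- and 5 in the double knockout at day 15. With all 48 libraries in 1 fit these were 17 and 14 at day 15. The double knockout interaction had 1 call with DESeq2. The replicate block moved no other count of called members by over 1.5 times. It moved counts at an unadjusted p below 0.05 from 1 to 28 in KAT6B-/- at day 6, from 28 to 15 there at day 15, from 10 to 5 in the double knockout at day 15 and from 8 to 14 in its interaction. The double knockout beta sum at day 0 was 1.67 CPM without TMM factors, beside 1.80. The cause of these shifts was not tested.

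Leaving out 1 library gave 6 to 39 higher calls at day 6 in E14, 4 to 13 in KAT6A-/-, 15 to 35 in KAT6B-/- and 12 to 30 in the double knockout, and 1 to 22 lower calls at day 2 in the double knockout. In KAT6A-/- at day 6, leaving out replicate 3 also gave 21 lower calls, all gamma. KAT6B-/- against E14 at day 15 had 0 to 13 calls and its interaction 0 to 2. For single members, 926 values kept their side of the threshold, 27 gained a call and 15 lost one. No called value reversed its direction, which was not checked for values without a call. At day 0 the beta array rests on 32 to 134 counts a library, which limits the precision of single beta members there.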
